A study of Mus musculus with 15 samples.

Results

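To describe the checkpoint axis in the circulation of mice treated by checkpoint inhibition and surgery, 10 genes were followed in whole blood. They were the inhibitory receptor genes Ctla4, Pdcd1 (PD-1), Lag3, Tigit and Havcr2 (TIM-3), the costimulatory receptor genes Icos and Tnfrsf18 (GITR), and the regulatory T cell genes Foxp3, Il2ra (CD25) and Ikzf2 (Helios). Each was taken by its symbol, with earlier results of these data known, and all 10 were found among the 55416 gene identifiers of the count files. RNA had been sequenced from the peripheral blood of 15 C57BL/6 mice, 5 per group. In the early group αCTLA-4 was combined with an early neck dissection (ND), the surgical removal of the draining lymph node basins. In the late group it was combined with late ND. The untreated group had neither αCTLA-4 nor surgery. The labels give 2 doses of αCTLA-4 for the treated animals. They give all 3 groups the same growth protocol, in which 4MOSC1 cells, a mouse oral squamous cell carcinoma line, were placed in the tongue and grown for 10 days. The study describes no separate tumor-free blood control. Its sources disagree on whether the late animals were bled before or after their operation, so late ND names the group only. No group is labelled as αCTLA-4 without surgery, and whether the late mice had been operated on when bled is unresolved. An effect of the antibody and an effect of surgery therefore cannot be told apart against untreated blood.

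Checkpoint receptors are surface proteins that dampen or sustain a T cell once its antigen receptor has been engaged. CTLA-4 competes with CD28 for the ligands CD80 and CD86, and PD-1 is engaged by PD-L1 and PD-L2. Regulatory T cells restrain other T cells, depend on the transcription factor FOXP3, and carry CTLA-4, ICOS, GITR and the high-affinity interleukin-2 receptor chain CD25 at their surface without further stimulation. In blood they are a minority of the T cells. In RNA of whole blood, fewer cells of a type and less RNA per cell cannot be told apart.

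The depth behind each value was modest. Gene counts ranged from 5862888 to 10796099 in untreated, from 5527108 to 7182346 in early and from 7849602 to 13924361 in late libraries. Together the 10 genes held between 127 and 1050 counts per library, or 21.7 to 98.3 in counts-per-million of gene counts (CPM). Hemoglobin genes took 31.6% to 61.7% of gene counts in untreated, 38.3% to 64.1% in early and 14.9% to 29.3% in late libraries. The 18S ribosomal gene Rn18s-rs5 was under 5000 CPM in 3 libraries (untreated 2, late 2 and late 3), called 18S-poor below, and over it in the other 12. Levels are given as TMM CPM, which are CPM rescaled by the trimmed mean of M values so that most genes have the same level across libraries. Since hemoglobin takes a variable share of a library, TMM CPM are not shares of the total. Count floors cover counting error only, while the intervals of fold changes also hold the spread between mice.

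None of the 10 genes passed an adjusted p of 0.05 in any of the 4 comparisons (edgeR quasi-likelihood test, Benjamini-Hochberg adjustment over all genes tested). Between late and early ND, 8 of the 10 genes had enough counts to be tested and 0 passed, where 4.98% of the 13315 genes tested did. At an unadjusted p under 0.05, 1 of these 8 was lower in late mice, against 23.8% of all genes in either direction. For late ND against untreated blood 0 of 9 passed, against 3.0% of 13547 genes. Here 2 of the 9 were lower at the unadjusted level, where 17.0% of all genes passed in either direction. Early ND and untreated blood differed in 0 of 7 tested genes, in a comparison where 0.0% of all 12151 genes passed. Of the 7, 1 was lower at the unadjusted level against 4.44% of all genes. With both αCTLA-4 groups set against untreated blood, 0 of 9 genes and 0.0% of 13421 passed. In that comparison 2 of 9 were lower at the unadjusted level, against 7.79% of all genes. DESeq2 called 1 of the members between late and early ND (Il2ra, below) and 0 in each of the other 3 comparisons. Over all genes it called 769 higher and 670 lower of 13315 between late and early ND. For late ND against untreated blood it called 272 and 538 of 13547. It called 0 of 12151 for early ND, and 8 and 5 of 13421 for both treated groups, against untreated blood.

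The median log2 fold change over the tested members was -0.085 between late and early ND, against 0.014 over all genes. It was -0.26 for late ND against untreated blood (all genes, 0.0023), 0.15 for early ND against untreated blood (all genes, -0.0022) and -0.20 for both treated groups against untreated blood (all genes, -0.0034). For a typical member the 95% confidence interval of a fold change reached 0.50 to 0.56 log2 units to either side of its estimate. Changes smaller than that were mostly not detectable at this depth and number of mice. The plot of fold changes shows that most intervals crossed 0 and that those of Icos stayed below 0 in each comparison with untreated blood.

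**Figure D1:**
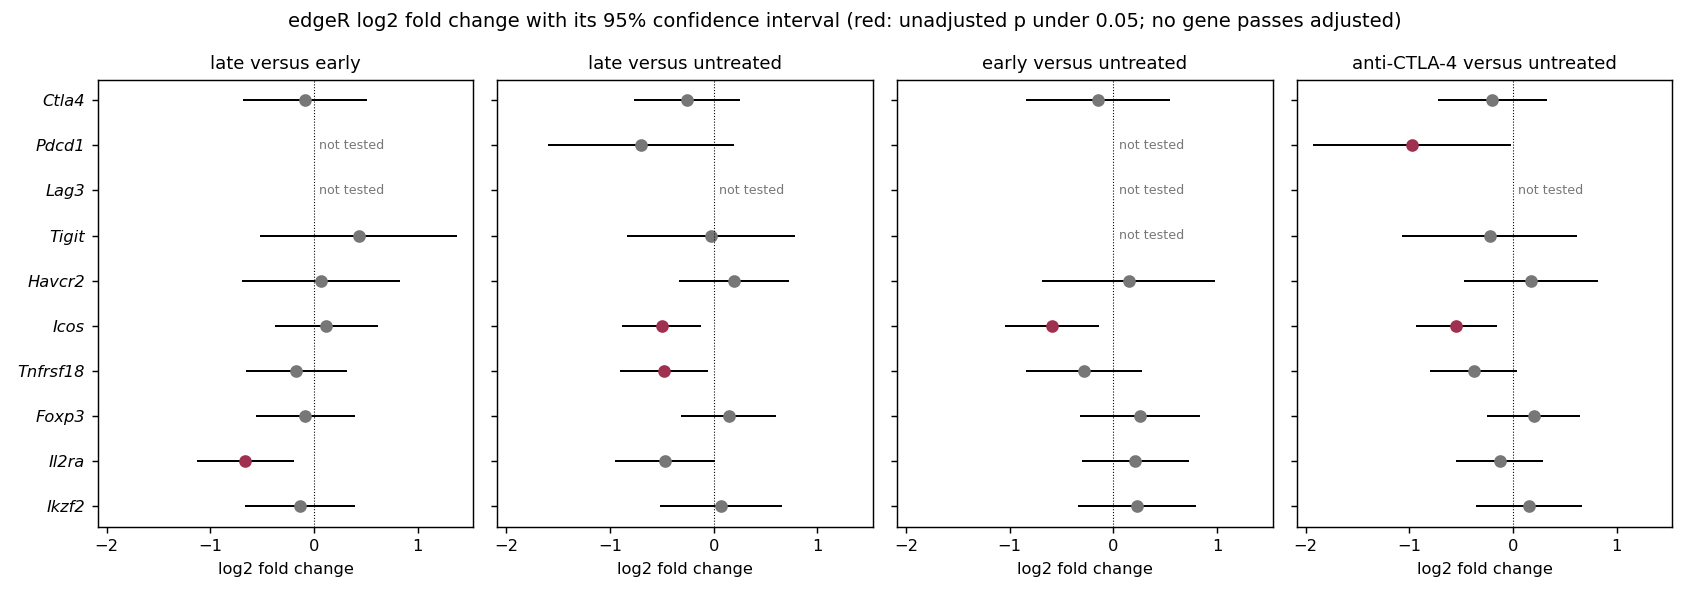
log2 fold change (x axis, edgeR) of each gene (y axis) in the 4 comparisons, with 95% confidence intervals as lines. Red points have an unadjusted p under 0.05; none passed after adjustment, and genes with too few counts are marked as not tested. Il2ra was lowest between late and early ND at -0.66, and Icos lay between -0.50 and -0.59 against untreated blood.

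Ctla4 encodes the target of the antibody itself. It lies at chromosome 1, 60926159 to 60954991 on the plus strand (GRCm39), and its exons overlap no other annotated gene. Raw counts were 10, 93, 19, 20 and 22 in untreated libraries 1 to 5, 47, 37, 18, 9 and 13 in early libraries and 41, 85, 119, 51 and 52 in late libraries. As TMM CPM these were 4.02, 6.47, 5.47, 3.38 and 3.55 in untreated, 5.99, 6.13, 2.46, 3.25 and 2.84 in early, and 3.72, 3.41, 5.21, 3.77 and 3.28 in late libraries. The 3 groups overlapped, with early 1 and early 2 near the top of the range and the other 3 early libraries at its bottom. The fold change was -0.087 ± 0.27 (log2, SE) between late and early ND, -0.26 ± 0.23 between late ND and untreated blood and -0.15 ± 0.32 between early ND and untreated blood. No comparison of Ctla4 reached an unadjusted p of 0.05, and for both treated groups against untreated blood the 95% interval ran from -0.72 to 0.32.

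Pdcd1 (chromosome 1, 93966027 to 93980312, minus strand) was among the scarcest members. Untreated libraries held 4, 35, 8, 5 and 10 counts, early libraries 12, 7, 1, 1 and 1, and late libraries 14, 17, 11, 25 and 22. These came to a mean of 1.76 ± 0.64 TMM CPM (SD, n = 5) in untreated, 0.681 ± 0.62 in early and 1.13 ± 0.55 in late mice. In 3 of the 5 early libraries PD-1 message thus rested on 1 count, and every group overlapped the others. Across both αCTLA-4 groups Pdcd1 stood at -0.98 ± 0.45 (log2, SE) relative to untreated blood, with an unadjusted p of 0.0441 and an adjusted p of 0.632 (edgeR). Restricted to the 12 libraries rich in 18S sequence, that difference was -0.56, with an unadjusted p of 0.301. Too few counts were left to test Pdcd1 between early ND and either other group.

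Lag3, an inhibitory receptor for MHC class II, was the least abundant gene and had too few counts to be tested in any comparison. It lies at chromosome 6, 124881320 to 124888765, minus strand. It had 0, 14, 0, 6 and 3 counts in untreated, 10, 1, 6, 4 and 3 in early and 7, 13, 9, 14 and 18 in late libraries. The counts of 0 in untreated 1 and untreated 3 allow up to 3 counts each, which are 1.21 and 0.863 TMM CPM. Both limits lie within the range of the other libraries, which reached 1.44 TMM CPM, so absence of the transcript could not be told from shallow coverage.

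Tigit, which competes with the activating receptor CD226 for shared ligands, lies at chromosome 16, 43469100 to 43484509, minus strand. Its counts were 5, 43, 2, 10 and 10 in untreated, 16, 14, 9, 2 and 1 in early and 12, 30, 48, 35 and 37 in late libraries. Mean levels were 1.78 ± 0.87, 1.31 ± 0.88 and 1.86 ± 0.68 TMM CPM (SD, n = 5), with overlap among all groups. Between late and early ND the difference was 0.43 ± 0.43 (log2, SE), less than the spread between mice. Havcr2 (chromosome 11, 46345673 to 46374149, plus strand), which is also carried by myeloid cells, ranged from 2.85 to 5.07 TMM CPM in untreated, from 1.51 to 7.42 in early and from 3.40 to 5.87 in late libraries. The early group alone spanned the levels of both others, and the 3 pairwise fold changes of Havcr2 lay between 0.068 and 0.19 on the log2 scale.

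**Figure D2:**
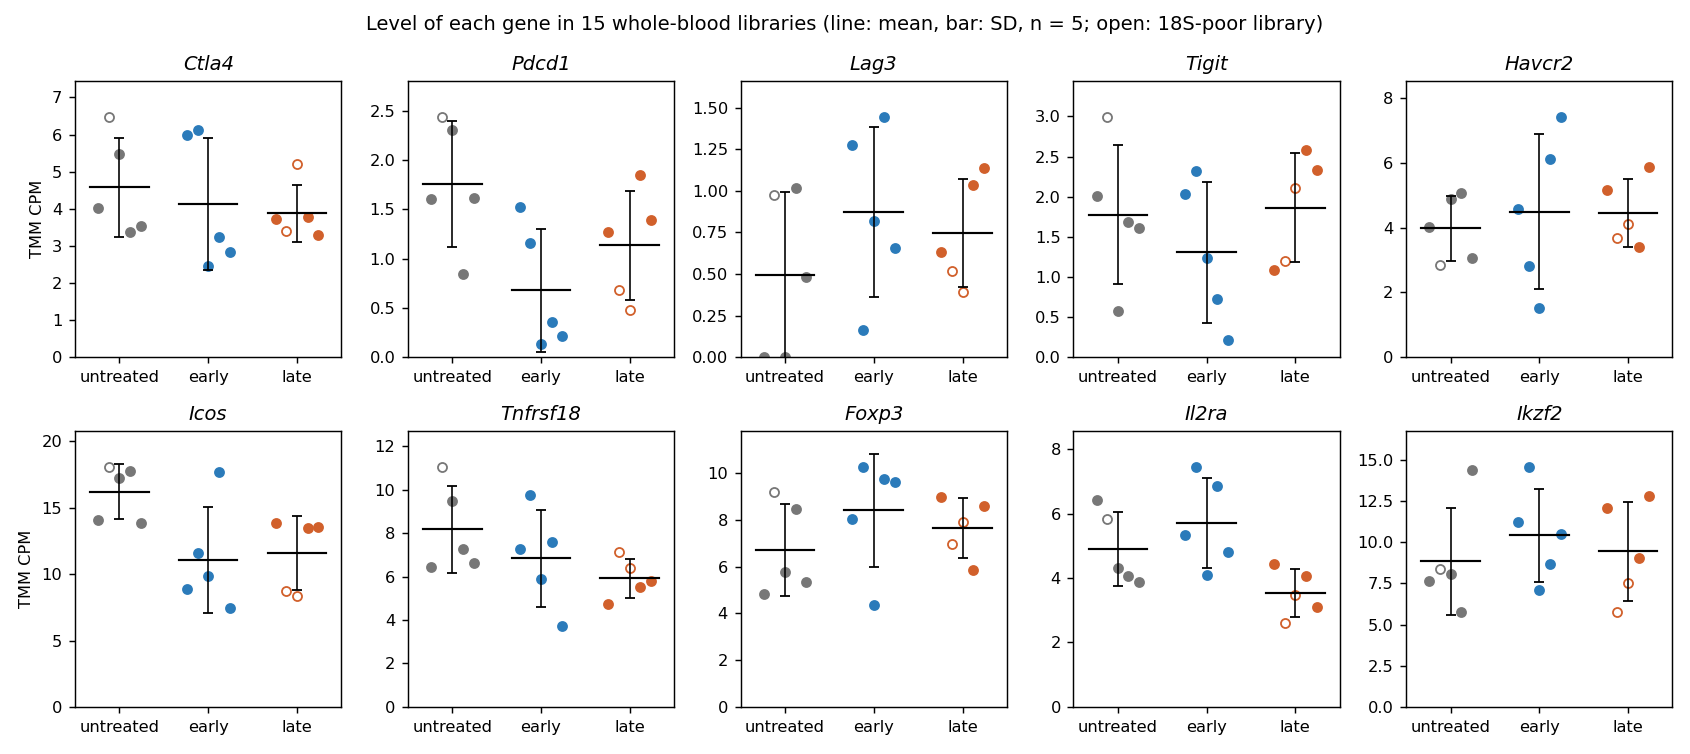
Level of each gene (y axis, TMM CPM) in the 15 libraries by group (x axis). Points are libraries (open for the 3 that were 18S-poor), lines are group means and bars are SD with n = 5. Icos averaged 16.2 in untreated, 11.1 in early and 11.6 in late mice, and Il2ra 5.71 in early and 3.53 in late mice, with overlap between groups in each case.

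Among costimulatory receptors, Icos, the inducible costimulator of activated and regulatory T cells, had a lower mean in both treated groups without passing the adjusted test. It lies beside Ctla4 on chromosome 1, at 61017086 to 61039479 on the plus strand. Raw counts were 35, 260, 60, 105 and 86 in untreated, 70, 70, 72, 49 and 34 in early and 153, 217, 191, 183 and 214 in late libraries. The corresponding TMM CPM were 14.1, 18.1, 17.3, 17.7 and 13.9 in untreated, 8.92, 11.6, 9.85, 17.7 and 7.42 in early, and 13.9, 8.70, 8.37, 13.5 and 13.5 in late libraries. Early 4, at 17.7, stood with the highest untreated mice, late 1 matched the lowest untreated mouse, and the other 8 treated mice lay below all untreated mice. Early ND stood at -0.59 ± 0.20 (log2, SE) relative to untreated blood, with an unadjusted p of 0.0125 and an adjusted p of 0.938 (edgeR). Late ND stood at -0.50 ± 0.17, with an unadjusted p of 0.0123 and an adjusted p of 0.154. Both groups together stood at -0.55 ± 0.18, with an unadjusted p of 0.0078 and an adjusted p of 0.533. These 3 comparisons share the same untreated mice. Of the late libraries, the 2 that were 18S-poor were the lowest, at 8.70 and 8.37, and without the 18S-poor libraries the difference between late ND and untreated blood was -0.22 (unadjusted p = 0.179, edgeR). Late and early ND differed in Icos by 0.12 ± 0.22.

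Tnfrsf18, the gene of the receptor GITR, lies at chromosome 4, 156110621 to 156113352, plus strand. It had 6.43, 11.1, 9.50, 7.27 and 6.61 TMM CPM in untreated, 7.26, 9.77, 5.88, 7.58 and 3.71 in early and 4.72, 7.13, 6.39, 5.54 and 5.81 in late libraries. Late 2 lay within the untreated range and the other 4 late libraries below it, while the early group spanned much of both. For late ND against untreated blood the fold change was -0.48 ± 0.19 (log2, SE), with an unadjusted p of 0.0281 and an adjusted p of 0.222 (edgeR). Its count is uncertain, because 35.9% of its exonic bases are overlapped on the opposite strand by Gm16008, and whether counting used strand is not given in the sources used here. Gm16008 itself was given 54.2 to 129 counts for every 100 of Tnfrsf18.

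Foxp3, the lineage-defining transcription factor of regulatory T cells, differed by less than its spread in each comparison of levels. It lies at chromosome X, 7439883 to 7461484, plus strand. Untreated libraries held 12, 132, 20, 50 and 33 counts, early libraries 63, 62, 32, 27 and 44, and late libraries 99, 174, 181, 79 and 136. In TMM CPM they had 4.82, 9.19, 5.75, 8.45 and 5.32 in untreated, 8.02, 10.3, 4.38, 9.74 and 9.60 in early, and 8.98, 6.97, 7.93, 5.83 and 8.59 in late libraries. Late ND differed from early ND by -0.084 ± 0.22 (log2, SE) and from untreated blood by 0.14 ± 0.21, and early ND differed from untreated blood by 0.26 ± 0.26. The interval for both treated groups against untreated blood ran from -0.24 to 0.63. Of its exonic bases, 18.6% are overlapped by other genes on the same strand and 18.7% on the opposite strand, among them Ccdc22, Flicr and Ppp1r3f, so part of its reads may have been assigned elsewhere or set aside.

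Il2ra had the lowest p of the members between late and early ND, without passing after adjustment. The gene encodes CD25, the chain that gives the interleukin-2 receptor its high affinity, and lies at chromosome 2, 11647618 to 11698004, plus strand. Raw counts were 42, 45, 30, 19 and 22 in early and 49, 65, 79, 55 and 49 in late libraries, against 16, 84, 15, 24 and 24 in untreated ones. Scaled to TMM CPM these were 5.35, 7.45, 4.11, 6.86 and 4.80 in early, 4.45, 2.60, 3.46, 4.06 and 3.09 in late, and 6.43, 5.85, 4.32, 4.06 and 3.87 in untreated libraries. Early 3 was the lowest of its group and fell below late 1, while the other 4 early libraries exceeded every late library. Late ND stood at -0.66 ± 0.21 (log2, SE) relative to early ND, with an unadjusted p of 0.00874 and an adjusted p of 0.0855 (edgeR), so it did not pass. DESeq2 gave -0.69 with an adjusted p of 0.0410, and edgeR without early 3 gave -0.76 with an adjusted p of 0.0415. Without the 18S-poor libraries it was -0.55 (unadjusted p = 0.0537, adjusted p = 0.217, edgeR). Against untreated blood, late ND stood at -0.47 ± 0.22, with an unadjusted p of 0.0505, and early ND at 0.21 ± 0.23. Ikzf2 (chromosome 1, 69570373 to 69727004, minus strand), whose product Helios marks many regulatory T cells, ranged from 5.75 to 14.4 TMM CPM in untreated, from 7.12 to 14.6 in early and from 5.73 to 12.8 in late libraries. Its 3 pairwise fold changes lay between -0.14 and 0.23, each smaller than its standard error.

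Compared per kilobase of exon, the members fell over a range of levels. The mean over the 15 libraries was 4.58 ± 1.27 TMM CPM per kb (SD) for Tnfrsf18 and 3.78 ± 1.08 for Icos. Ctla4 followed at 1.80 ± 0.56, Foxp3 at 1.66 ± 0.42 and Tigit at 1.57 ± 0.76. Havcr2 stood at 0.883 ± 0.31, Il2ra at 0.826 ± 0.25, Ikzf2 at 0.731 ± 0.22, Pdcd1 at 0.606 ± 0.37 and Lag3 at 0.317 ± 0.20. The step from Icos to Ctla4 was seen in 15 of 15 libraries. Every other neighbouring pair kept its order in only 7 to 12 of the 15, so those orders are not firm, and they were not tested. The places of Tnfrsf18 and Foxp3 also carry the uncertainty from overlapping genes given above.

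To relate the members to the amount of T cell message in each sample, counts were set against Cd3e, a subunit of the T cell receptor complex, and Cd4, which is carried by helper and regulatory T cells and also by some myeloid cells. Cd3e averaged 36.2 ± 4.16 TMM CPM in untreated, 36.7 ± 7.39 in early and 28.7 ± 5.14 in late mice (SD, n = 5). Late ND stood at -0.33 ± 0.14 (log2, SE) in Cd3e relative to untreated blood, with an unadjusted p of 0.0308 and an adjusted p of 0.232 (edgeR). Exact permutation tests, two-sided, were run on the log2 ratios to each denominator. With 5 mice against 5 the smallest possible p is 0.00794, so that 15.9% of all genes would have to reach it before any could pass adjustment. None of the members passed after adjustment in the 8 comparisons of ratios, and the share over all genes was 0.0% in each.

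Foxp3 relative to Cd4 was higher in late mice and in both treated groups together than in untreated mice, at the unadjusted level only. Untreated mice had 13.6, 15.3, 13.1, 23.1 and 22.8 Foxp3 counts per 100 Cd4 counts, early mice 22.5, 20.8, 17.4, 19.6 and 31.4, and late mice 27.3, 21.5, 29.3, 19.6 and 27.1. Untreated 4 and untreated 5 lay inside the treated range, and the other 3 untreated mice lay below all 10 treated mice. The log2 difference was 0.44 for both treated groups against untreated blood (exact permutation test, p = 0.0283, adjusted p = 0.928) and 0.52 for late ND against untreated blood (exact permutation test, p = 0.0476, adjusted p = 0.416). For early ND it was 0.35 (exact permutation test, p = 0.159). Neither of the first differences kept an exact permutation p under 0.05 with each library left out in turn, which also makes the groups smaller. The one for both groups had an exact permutation p of 0.0629 to 0.0879 without untreated 1, 2 or 3, and the one for late ND had 0.0714 to 0.0794 without untreated 1, 2 or 3 or late 1, 3 or 5. Without the 18S-poor libraries the differences for both groups and for late ND were 0.37 (exact permutation test, p = 0.117) and 0.47 (exact permutation test, p = 0.171). Set against Cd3e, the same differences were 0.43 (exact permutation test, p = 0.0523) and 0.56 (exact permutation test, p = 0.0794).

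Il2ra relative to Cd4 was lower in late than in early mice, again at the unadjusted level only. Early mice had 15, 15.1, 16.3, 13.8 and 15.7 Il2ra counts per 100 Cd4 counts and late mice 13.5, 8.02, 12.8, 13.6 and 9.76. The highest late mouse (late 4, 13.6) and the lowest early mouse (early 4, 13.8, from 19 Il2ra counts) nearly met. On the log2 CPM scale used for testing, whose prior count of 2 draws low counts together, the groups overlapped slightly. There late minus early was -0.39 (p = 0.0159 by exact permutation, adjusted p = 0.379), where 12.2% of all genes had an unadjusted p under 0.05. Leaving out early 1, 2, 3 or 5 moved this exact permutation p to between 0.0556 and 0.0635. Relative to Cd3e the difference was -0.31 (exact permutation test, p = 0.0635). Icos relative to Cd3e was lower after early ND than in untreated blood by 0.59 on the log2 scale (exact permutation test, p = 0.0476, adjusted p = 1.0), and relative to Cd4 by 0.54 (exact permutation test, p = 0.0476, adjusted p = 1.0). Leaving out 1 library took the Cd3e ratio of Icos above 0.05 in 7 of 10 cases and the Cd4 ratio in 7 of 10 (exact permutation, highest p = 0.0952).

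With the mean of Cd3d, Cd3e and Cd3g as denominator Icos after early ND was -0.38 relative to untreated blood (exact permutation test, p = 0.151), while other members had an unadjusted p under 0.05. The log2 difference of Foxp3 from untreated blood was 0.72 for late mice (p = 0.0159 by exact permutation, adjusted p = 0.0539), 0.51 for early mice (p = 0.0317 by exact permutation, adjusted p = 0.498) and 0.62 for both together (p = 0.0030 by exact permutation, adjusted p = 0.0845). That of Havcr2 was 0.67 for late mice (p = 0.0238 by exact permutation, adjusted p = 0.0640), and that of Il2ra 0.42 for early mice (p = 0.0397 by exact permutation, adjusted p = 0.515). Of all genes, 50.2% had an unadjusted p under 0.05 with this denominator for late ND against untreated blood, where 2 of 9 members did and 19.7% of genes but 0 members passed after adjustment. For early ND the unadjusted share was 9.0%, against 2 of 7 members, and for both groups 28.0%, against 1 of 9. Between late and early ND it was 18.4%, against 0 of 8.

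The unadjusted differences in ratios to Cd3e and Cd4 stand beside the following shares over all genes. Between late and early ND, 21.1% of genes had an unadjusted p under 0.05 as a ratio to Cd3e and 12.2% as a ratio to Cd4, against 0 and 1 of 8 members. For late ND against untreated blood the shares were 27.8% and 11.3%, against 0 and 1 of 9 members. For early ND against untreated blood they were 2.12% and 0.889%, against 1 and 1 of 7 members. For both treated groups against untreated blood they were 6.36% and 4.04%, against 0 and 1 of 9 members. In none of these 8 comparisons of ratios did the members' count exceed the share over all genes by more than 1 gene.

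**Figure D3:**
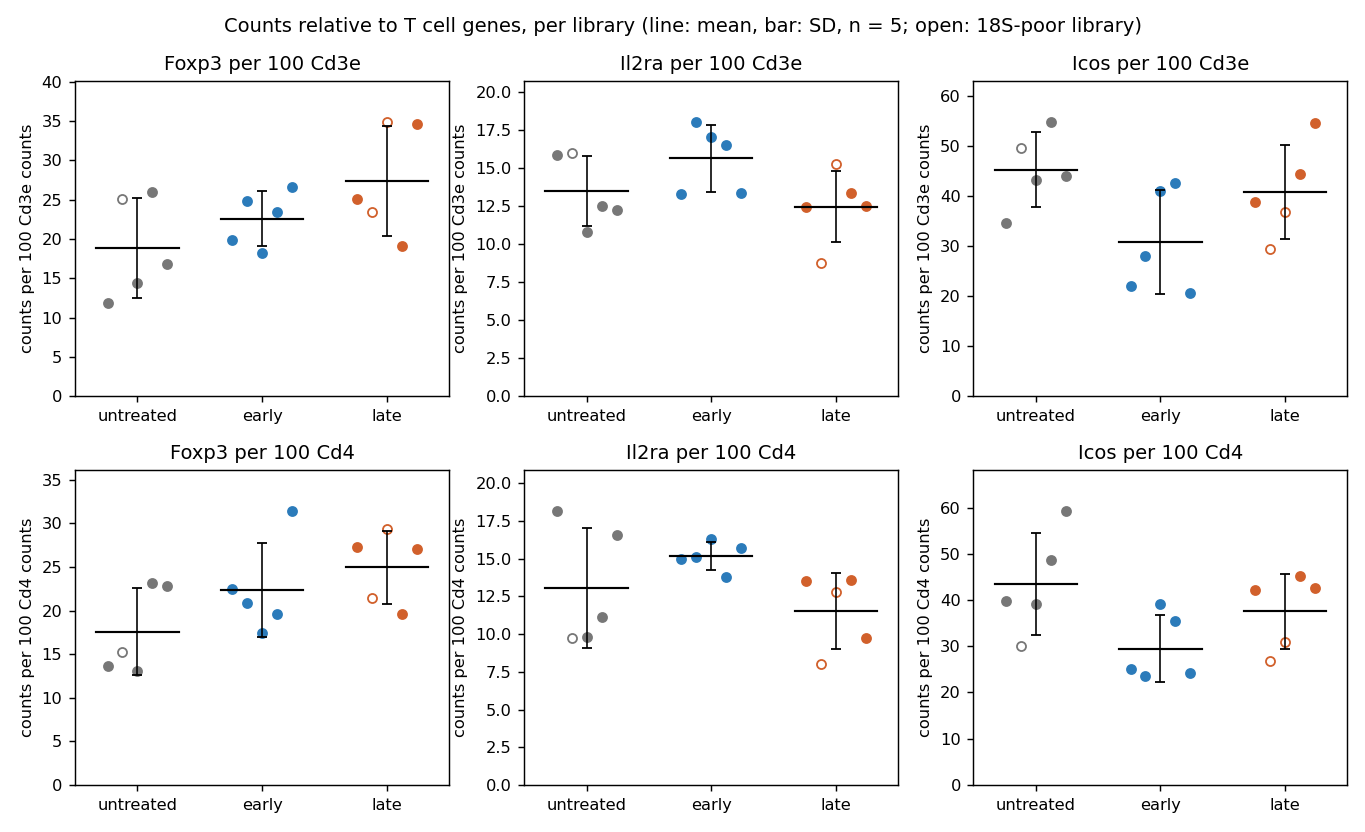
Counts of Foxp3, Il2ra and Icos per 100 counts of Cd3e (top) or Cd4 (bottom) on the y axis, for each library by group on the x axis. Open points are 18S-poor libraries, lines are means and bars are SD with n = 5. Foxp3 per 100 Cd4 was 13.1 to 23.1 in untreated and 17.4 to 31.4 in early mice, and Il2ra per 100 Cd4 was 8.02 to 13.6 in late and 13.8 to 16.3 in early mice.

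Counts of the receptors were also set against Foxp3 itself, as a description with no test. Per Foxp3 count there were 2.92, 1.97, 3.0, 2.10 and 2.61 Icos counts in untreated, 1.11, 1.13, 2.25, 1.81 and 0.773 in early and 1.55, 1.25, 1.06, 2.32 and 1.57 in late mice. Early 3 and late 4 were the only treated mice inside the untreated range of 1.97 to 3.0. For Tnfrsf18 the ratio was 0.860 to 1.65 in untreated, 0.386 to 1.34 in early and 0.525 to 1.02 in late mice. Ctla4 had 0.400 to 0.950 counts per Foxp3 count in untreated, 0.295 to 0.746 in early and 0.382 to 0.657 in late mice. Il2ra had 0.480 to 1.33, 0.50 to 0.938 and 0.360 to 0.696, in the same order. For Tnfrsf18 and Ctla4, 4 of the 5 untreated mice lay above every late mouse, and untreated 4, at 0.860 and 0.400, was the exception. Early mice overlapped both other groups for these 3 genes. Since Foxp3 counts were as low as 12, the ratios of shallow libraries carry a large counting error.

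**Figure D4:**
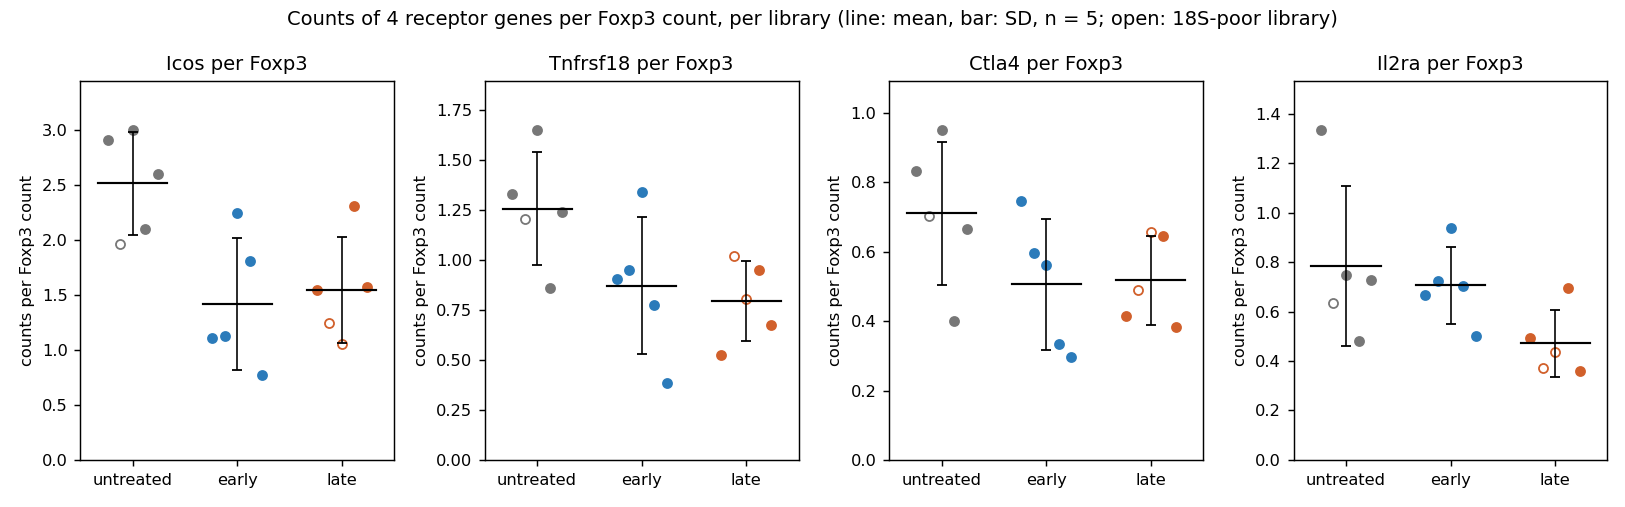
Counts of Icos, Tnfrsf18, Ctla4 and Il2ra per Foxp3 count (y axis) for each library by group (x axis). Open points are 18S-poor libraries, lines are means and bars are SD with n = 5. Icos per Foxp3 was 1.97 to 3.0 in untreated and 0.773 to 2.32 in the treated mice.

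The partners of these receptors were examined as 5 further lists, also chosen with earlier results of these data known. Counts in these lists and in the cell markers below stand beside the shares over all genes. With edgeR 4.98% passed between late and early ND, 3.0% for late ND against untreated blood and 0.0% in the other comparisons. At an unadjusted p under 0.05 these were 23.8% and 17.0%, with 4.44% for early ND and 7.79% for both treated groups against untreated blood. The DESeq2 counts over all genes are given above. Of 12 ligand genes, 9 were tested between late and early ND, where 1 was higher and 1 lower in late mice (edgeR). Cd80, the shared ligand of CD28 and CTLA-4, was higher in late than early mice by 1.03 ± 0.26 (log2, SE, adjusted p = 0.0418, edgeR). It had 6.26 to 11.1 TMM CPM in late and 2.32 to 6.33 in early mice. Cd274, which encodes PD-L1, was lower in late than in early mice by 0.67 on the log2 scale (SE 0.11, adjusted p = 0.0126). It had 19.7 to 29.7 TMM CPM in late, 35.6 to 40.4 in early and 21.3 to 32.8 in untreated mice. Against untreated blood, early ND stood at 0.52 ± 0.14 in Cd274, with an unadjusted p of 0.0022 and an adjusted p of 0.938 (edgeR). Late ND stood at -0.17 ± 0.15 against untreated blood (unadjusted p = 0.280, edgeR). The 2 most abundant ligand genes were Ceacam1 and Icosl, at means of 55.1 and 54.9 TMM CPM, and the fold changes of 0.24 and -0.12 between late and early ND did not pass. In the other 3 comparisons 0 of the ligand genes passed with edgeR, 1 was higher in each at an unadjusted p under 0.05, and DESeq2 called 1 for late ND against untreated blood. The list's median between late and early ND was 0.0094, against 0.014 over all genes.

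Of 13 further receptor genes, 12 were tested between late and early ND, where again 1 was higher and 1 lower in late mice. Vsir is the gene of the inhibitory receptor VISTA, which is abundant on myeloid cells. It was higher in late than early mice by 0.92 ± 0.22 (log2, SE, adjusted p = 0.0392, edgeR). Cd226, an activating receptor of T cells and NK cells that platelets also carry, was lower in late than early mice by 0.71 (SE 0.18, adjusted p = 0.0416). It had 196 to 376 TMM CPM in early and 140 to 188 in late mice. These were also the 2 most abundant genes of the list. Its median was -0.20 between late and early ND and -0.25 between late ND and untreated blood, and 0 genes passed outside the comparison of late with early ND with either edgeR or DESeq2. At an unadjusted p under 0.05, 1 was higher and 4 lower for late ND, 2 lower for early ND and 1 lower for both treated groups against untreated blood.

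Among 13 other genes linked to regulatory T cells, 11 were tested between late and early ND and 1 passed. Tnfrsf1b is the gene of TNF receptor 2, which myeloid cells express as well. Its level was higher in late than early mice by 0.69 ± 0.17 (log2, SE, adjusted p = 0.0415, edgeR), at 102 to 194 against 79.7 to 113 TMM CPM. It was the most abundant gene of the list, followed by Entpd1 (CD39) at a mean of 75.1 TMM CPM, for which 0.62 did not pass. The list's median was 0.055 between late and early ND. In the other 3 comparisons 0 passed with edgeR, and for late ND against untreated blood 3 were higher and 1 lower at an unadjusted p under 0.05, of which DESeq2 called 1 higher. For both treated groups against untreated blood 1 was higher at the unadjusted level, and for early ND 0 were. Of 11 transcription factor genes of T cell activation and exhaustion, 9 were tested in each comparison and 0 passed with edgeR. At an unadjusted p under 0.05, 2 were higher between late and early ND, and 1 was higher and 2 lower for late ND against untreated blood, of which DESeq2 called 1 lower. For both treated groups 1 was lower at the unadjusted level, and for early ND 0 were. The most abundant of these, Tcf7 and Nfatc1, had -0.23 and 0.33 between late and early ND, and the median was 0.086.

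Of 14 T cell reference genes, 2 passed, both lower in late than in untreated mice. Trbc2, a constant region of the T cell receptor, fell by 0.74 (SE 0.13, adjusted p = 0.0242) and Cd3g by 0.63 (SE 0.13, adjusted p = 0.0274, edgeR, both on the log2 scale). Trbc2 was the most abundant of the list, followed by Lat, at -0.52. At an unadjusted p under 0.05, 13 of the 14 were lower for late ND against untreated blood, where 17.0% of all genes passed in either direction. The median of the 14 was -0.42 in that comparison, against 0.0023 over all genes. It was -0.27 between late and early ND and -0.11 between early ND and untreated blood, where 0 of the 14 passed (edgeR) and 3 and 1 were lower at an unadjusted p under 0.05. For both treated groups against untreated blood 0 passed and 6 were lower at the unadjusted level. DESeq2 called 7 lower for late ND against untreated blood, 1 lower between late and early ND and 1 lower for both treated groups. Over all genes it called 538, 670 and 5 lower, in the same order. For late ND against untreated blood the list's median was -0.53 without the 18S-poor libraries, where 0 of all 13051 genes passed (edgeR). Scaled by library totals the list's median was 0.48, where all genes had a median of 0.91. In the same comparison with untreated blood the members had a median of -0.26, and the part of T cell abundance in the lower levels of Icos and Tnfrsf18 was not tested beyond the ratios above.

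**Figure D5:**
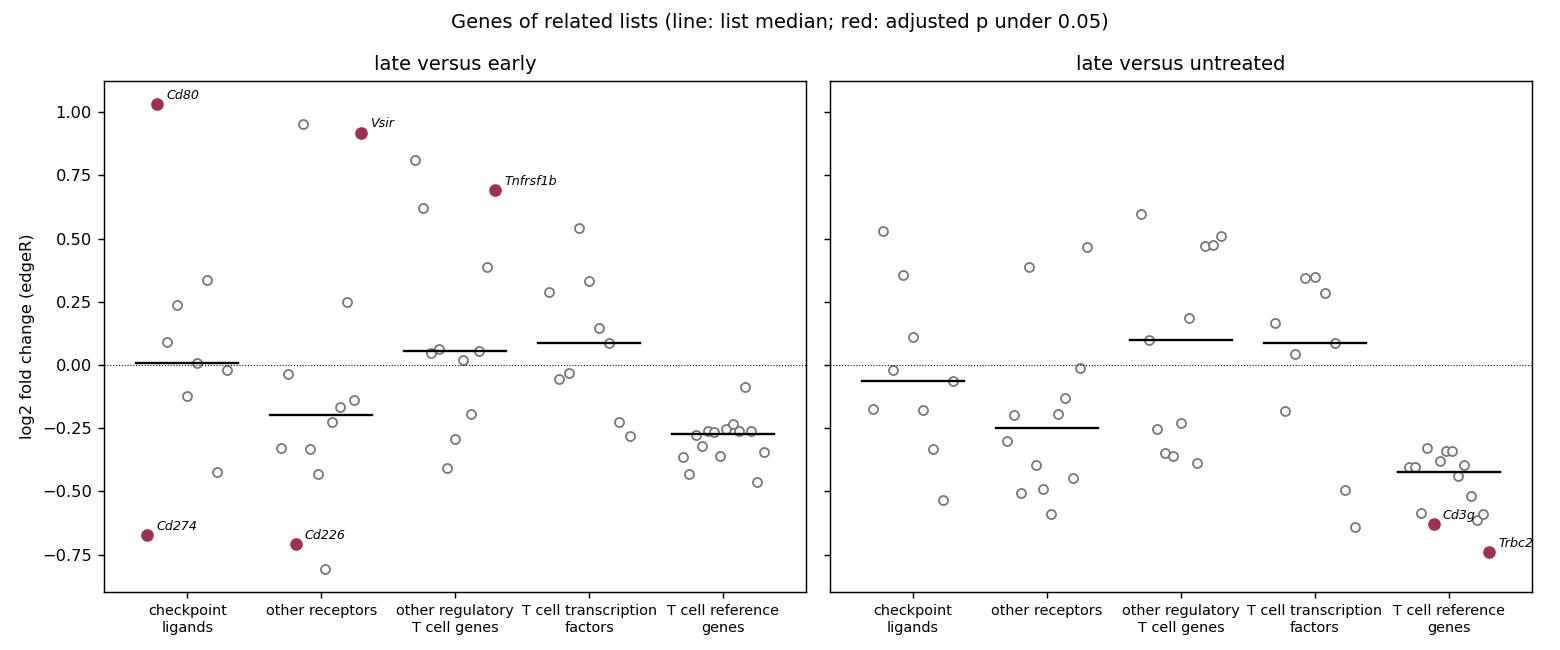
log2 fold change (y axis, edgeR) of each tested gene in 5 lists (x axis), for late against early ND (left) and late ND against untreated blood (right). Lines are list medians and red points passed an adjusted p of 0.05. Cd80, Vsir and Tnfrsf1b were higher and Cd274 and Cd226 lower in late than early mice. Trbc2 and Cd3g were lower in late than untreated mice. All of these are under TMM scaling.

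These 7 calls had limits. In the libraries rich in 18S sequence none passed (edgeR, adjusted p from 0.0509 to 0.128), with unadjusted p from 0.000193 to 0.0131 and each direction kept. Few genes of any kind passed there, 4 of 13440 between late and early ND and 0 of 13051 for late ND against untreated blood. Cd274 alone passed with every library left out in turn. Of its exonic bases, 19.6% are overlapped on the opposite strand (Gm36043 and Plgrkt), and of those of Cd80, 8.38%. Since the use of strand in counting is unknown, both counts are uncertain to that extent. For late ND against untreated blood, 0 of all genes passed without late 1, late 4, late 5 or untreated 3 (edgeR). With library totals that leave out hemoglobin and 18S, Cd3g stood at -0.39 (adjusted p = 0.157, edgeR) and Trbc2 at -0.51 (adjusted p = 0.0746). With all 15 libraries in 1 fit the adjusted p was 0.0506 for Cd226 and 0.0515 for Cd3g, and with DESeq2 size factors it was 0.0555 for Tnfrsf1b (all edgeR). Scaled by library totals in place of TMM, which moved the median of all genes to 0.86 between late and early ND and to 0.91 between late ND and untreated blood, Cd274, Cd226, Cd3g and Trbc2 took the opposite sign at 0.16, 0.17, 0.28 and 0.16, all below that median.

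Markers of other blood cells differed between the same groups. Summed over 8 monocyte markers, the level was 773 to 1345 TMM CPM in untreated, 754 to 2018 in early and 1892 to 2230 in late mice. Against untreated blood 3 of the 8 were higher in late mice (Csf1r, Ccr2 and Chil3) and against early ND 1 was (Csf1r), with 0 lower (edgeR). The marker genes given by name here were chosen after their values were seen. The 7 dendritic cell markers summed to 22.5 to 36.8, 28.9 to 40.4 and 39.1 to 51.3 TMM CPM in the same order. Of 6 tested, 1 (Flt3) was higher in late mice than in either other group. The 7 neutrophil markers summed to 4430 to 11536, 2310 to 7264 and 5597 to 14888, with 1 (Mmp8) higher in late than early mice with edgeR and 6 with DESeq2. For early ND against untreated blood, where Icos had an unadjusted p under 0.05, 4 of the 7 neutrophil markers were lower at that level (list median -1.04, 0 after adjustment), and their part in the Icos difference was not tested. In the lists for NK cells, B cells, platelets, and basophils and mast cells 0 genes passed with edgeR. At an unadjusted p under 0.05 these 4 lists held 1 lower NK cell gene and 1 lower platelet gene between late and early ND and 2 lower platelet genes between late ND and untreated blood, of which DESeq2 called 1, and 1 lower NK cell gene for both treated groups. None of these 7 lists had a marker at 0 throughout a group. Late mice thus had the highest median monocyte, dendritic cell and neutrophil sums (2187, 49.0 and 10370 TMM CPM). The neutrophil median was 3680 in early and 9090 in untreated mice. Between late and early ND, where Cd80, Vsir and Tnfrsf1b were higher, the median log2 fold changes of these 3 lists were 0.51, 0.50 and 1.07. Of the T cell reference genes, 2 passed as lower in late than in untreated mice and 0 between late and early ND (edgeR), with the limits given above. The part of all these cells in the members' levels was not tested.

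For the 7 members with a median of at least 30 counts, the genes with the most similar pattern over the 15 libraries were sought among 10874 genes, by the Pearson correlation of log2 TMM CPM. The points share library, depth and group, so these are descriptions. Ctla4 was most like Serpinc1, Psmb8 and Erg28 (r = 0.82, 0.78 and 0.76). Icos was most like Cnnm2, Cox10 and Ippk (r = 0.86, 0.73 and 0.70). Foxp3 was most like Fanci, Endog and Plekha1 (r = 0.84, 0.80 and 0.80). Il2ra had Mcm2, Prps2 and Rpl3 nearest to it (r = 0.87, 0.85 and 0.85). Ikzf2 had Eif4g1, Prkaa2 and Sertad2 (r = 0.81, 0.78 and 0.75). Havcr2 had Loxl3, Kxd1 and Gm21370 (r = 0.89, 0.84 and 0.84), and Tnfrsf18 had A630023P12Rik, Sgf29 and Ankrd54 (r = 0.89, 0.88 and 0.85). No member was among the 3 nearest genes of another.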

How the data were processed

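RNA from the blood of 15 mice gave 1 library each. Per the labels, the authors deposited raw gene counts from HTSeq 0.13.5, made after alignment with STAR 2.7.9 (GRCm39) and sorting with SAMtools 1.7. The labels also list mm10. The annotation release and strand setting are not given in the sources used here. HTSeq's summary rows were left out of library sizes. Reads that HTSeq gave to no gene or found ambiguous came to 52.0% to 56.4% of those and the gene counts together. With the strand setting unknown, reads given to no gene need not lie outside genes. Alignments that were not unique, 16874066 (late 5) to 44926843 (untreated 2) per library, are left out of that share. Symbols and positions were taken from GENCODE vM39, which matched 54749 of 55416 identifiers. Genes were filtered with filterByExpr, scaled by TMM and compared pairwise with the edgeR 4.0.16 quasi-likelihood test in R 4.3.3, with Benjamini-Hochberg adjustment over all genes tested and a threshold of 0.05. DESeq2 1.42.0 was an alternative. The contrast of both αCTLA-4 groups with untreated blood used a fit of all 15 libraries. Log2 ratios used a prior count of 2 and exact permutation tests. Tests were checked on simulated data. Members and lists were chosen with earlier results of these data known. Named list genes were those past the adjusted threshold, at most 6 per list, and the 2 most abundant. Red cell precursor markers are not reported here. Alternatives covered normalization, filter, test, samples in the fit, replicate block, 18S-rich libraries, prior count, denominator and each replicate left out.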

Additional observations from a re-analysis of the deposited data

Results flagged for a closer look

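For each of the 10 genes the 5 libraries of each group were examined for a single library far from the others (gap over range above the 95% critical value of Dixon's test), as TMM CPM and relative to Cd3e and to Cd4. This gave 90 groups, of which 5 held such a library. Chance flags about 1 in 20 groups. Ctla4 stood apart in late 3, at 5.21 TMM CPM against 3.28 to 3.77 in the other 4 late mice. The same library had 22.9 Ctla4 counts per 100 Cd3e counts, against 10.4 to 13.2, and 19.3 per 100 Cd4 counts, against 10.4 to 12.6. Ikzf2 stood apart in untreated 5, with 45.4 counts per 100 Cd3e counts against 17.7 to 22.9 in the other 4 untreated mice, and 61.4 per 100 Cd4 counts against 13.9 to 21.6. The 3 values of Ctla4 share 1 count of 119, and both values of Ikzf2 share 1 count of 89, so they are not independent of each other.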

How the results depend on the processing

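The count of members past the adjusted threshold between late and early ND was 0, and became 1 with DESeq2, 4 with library totals (Icos, Tigit, Havcr2 and Foxp3, all higher) and 0 to 1 with each replicate left out, the 1 being Il2ra without early 3. For late ND against untreated blood 0 became 3 with library totals (Havcr2, Ikzf2 and Foxp3, all higher). No other alternative moved a count of members, and in ratios it stayed 0. Over all genes, edgeR called 333 higher and 330 lower between late and early ND, DESeq2 769 and 670, and library totals 8923 and 137. For late ND against untreated blood these were 134 and 272, 272 and 538, and 7484 and 90. Library totals moved the median of all genes to 0.86 and 0.91 there, and to 0.47 for both αCTLA-4 groups against untreated blood. With library totals, opposite signs were taken by Ctla4 (0.71), Foxp3 (0.80), Il2ra (0.18), Ikzf2 (0.69) and Tnfrsf18 (0.68) between late and early ND, by Ctla4 (0.60), Pdcd1 (0.12), Icos (0.37), Tigit (0.76), Il2ra (0.40) and Tnfrsf18 (0.40) for late ND against untreated blood, and by Ctla4 (0.25), Tigit (0.16), Il2ra (0.31) and Tnfrsf18 (0.064) for both treated groups. Totals without hemoglobin and 18S turned Ctla4 (0.043), Foxp3 (0.087) and Ikzf2 (0.01) between late and early ND and Tigit (0.16) for late ND against untreated blood. Without the 18S-poor libraries the opposite sign was taken by Ikzf2 (0.11) between late and early ND, Tigit (0.44) for late ND and Ctla4 (0.058) for early ND against untreated blood, and Tigit (0.17) and Il2ra (0.032) for both treated groups. Among ratios to Cd3e the same libraries turned Tnfrsf18 (-0.022) between late and early ND, Pdcd1 (0.23), Icos (0.062) and Il2ra (0.012) for late ND, Havcr2 (-0.091) for early ND and Tigit (0.0601) for both treated groups against untreated blood. Among ratios to Cd4 they turned Tnfrsf18 (-0.056) between late and early ND, Ctla4 (-0.052) and Pdcd1 (0.087) for late ND, Havcr2 (-0.20) for early ND and Havcr2 (-0.027) for both treated groups. With the mean of Cd3d, Cd3e and Cd3g as denominator, signs turned for Icos (0.0032), Il2ra (0.0601) and Tnfrsf18 (0.072) for late ND, Ctla4 (0.016) for early ND, and Ctla4 (0.16) and Tigit (0.16) for both treated groups. Without a filter Tigit for late ND against untreated blood was 0.018. The cause of these sign changes was not tested.

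With each replicate left out in turn, log2 fold changes between late and early ND ranged from -0.25 to 0.097 for Ctla4, -0.17 to 0.35 for Havcr2, -0.26 to 0.0051 for Foxp3 and -0.30 to 0.014 for Ikzf2. Against untreated blood they ranged from -0.21 to 0.33 for Tigit and -0.085 to 0.33 for Ikzf2 in late mice, -0.33 to 0.058 for Ctla4 and -0.13 to 0.39 for Havcr2 in early mice, and -0.30 to 0.0023 for Ctla4 and -0.41 to 0.13 for Tigit in both treated groups. Ratios to Cd3e ranged from -0.0035 to 0.35 for Tnfrsf18 between late and early ND, from -0.044 to 0.27 for Ctla4, -0.18 to 0.014 for Il2ra and -0.21 to 0.071 for Tnfrsf18 for late ND, from -0.20 to 0.19 for Havcr2 for early ND, and from -0.13 to 0.10 for Ctla4, -0.36 to 0.21 for Tigit and -0.019 to 0.12 for Il2ra for both treated groups. Ratios to Cd4 ranged from -0.062 to 0.28 for Ikzf2 and -0.019 to 0.21 for Tnfrsf18 between late and early ND, from -0.048 to 0.20 for Ctla4 for late ND, from -0.31 to 0.021 for Ctla4 and -0.23 to 0.28 for Havcr2 for early ND, and from -0.10 to 0.077 for Ctla4, -0.37 to 0.18 for Tigit, -0.0022 to 0.39 for Havcr2 and -0.036 to 0.19 for Il2ra for both treated groups.

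Same-numbered libraries did not deviate together in every pair (correlations from -0.18 to 0.46 between late and early, 0.029 to 0.58 between late and untreated, and -0.24 to 0.080 between early and untreated libraries), and 2, 5 and 0 of 10 libraries correlated best with their own number, so the labels' numbers are not taken as pairs. With the replicate number as a block 0 members passed in each comparison, and Tigit for late ND against untreated blood was 0.0001. Depth limits the scarce genes most, since Pdcd1, Lag3 and Tigit rested on fewer than 10 counts in 7, 10 and 5 libraries.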
